A study of Gallus gallus with 8 samples.

Results

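Fibroblast growth factors (FGFs) and their receptors were examined in the retina of chicks that wore positive lenses, which place the image in front of the retina and slow eye growth. The 10 genes FGF1, FGF2, FGF8, FGF9, FGF12, FGF13, FGF19, FGFR1, FGFR2 and FGFR3 were chosen by symbol, and every probe set carrying one of these symbols was taken, 22 of the 38439 probe sets tested (10 of 13009 named genes). Retinal RNA of 8 White Leghorn chicks aged 9 days was hybridized to 8 Affymetrix GeneChip Chicken Genome arrays. The positive lens group of 4 chicks had worn a +6.9 D lens on each eye for 24 h, and the control group of 4 chicks had worn no lens. Each array holds the pooled retinas of 1 chick. On the day before, velcro rings had been glued around the eyes under diethylether anesthesia. The authors call the controls untreated and do not state whether they had rings or anesthesia. The RNA integrity numbers were 9.2 to 9.5. The whole retina was used, so fewer cells of a type and less mRNA per cell cannot be told apart.

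Secreted FGFs bind receptor tyrosine kinases together with heparan sulfate, and the receptors signal mainly through RAS and the MAP kinase ERK. In the retina FGFs are known as survival factors of photoreceptors and ganglion cells, and in chicks FGF2 given with insulin makes Mueller glia re-enter the cell cycle. A separate branch of the family, the FGF homologous factors, stays inside the cell and binds voltage-gated sodium channels without activating the receptors.

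All chicks are labelled male, but HINTW, a gene of the female-specific W chromosome, had a log2 intensity of 13.68 to 14.14 in 6 arrays and of 4.35 and 5.39 in control replicates 4 and 2. Of the 10 genes, 0 lie on chromosome Z or W of the RefSeq assembly. Fluidics station and order of scanning also separate the lens arrays from the control arrays, and their part and that of the treatment cannot be told apart. The 3′ probe set of beta-actin exceeded the 5′ one by 1.75 to 2.01 (log2) in lens-treated and by 1.67 to 1.77 in control chicks. Every array held signal of retinal cells: all 6 cone markers and all 6 Mueller glia markers reached an intensity of 16 on all 8 arrays. GFAP, a Mueller glia marker, was as low as 18.4 in plus lens replicate 1. Of the other retinal lists, 3 of 3 bipolar and 4 of 4 ganglion cell markers reached 16 on all arrays. So did 2 of 3 rod, 4 of 6 amacrine and 2 of 3 horizontal cell markers. The summed cone markers were 43194 to 52785 in lens-treated and 52734 to 58798 in control chicks, with a log2 difference of −1.31 at GNAT2 and of −0.07 to −0.16 at the other 5. By real-time PCR the authors found no significant change of GNAT2. The summed Mueller glia markers were 37370 to 47641 in lens-treated and 40378 to 45912 in control chicks. Of 8 pigment epithelium markers, 3 had an unadjusted p under 0.05 from limma. DCT and TYRP1, enzymes of melanin synthesis, were lower in lens-treated chicks, DCT at 8.60 to 22.9 in lens-treated and 22.8 to 74.4 in control chicks, TYRP1 at 4.13 to 8.55 in lens-treated and 5.66 to 44.3 in control chicks. TYRP1 lies on chromosome Z, and its highest value was in control replicate 2, low in HINTW. Control replicate 4, also low in HINTW, had 14.1, below control replicate 1 at 15.6. OCA2 was higher, at 160.1 to 269 in lens-treated and 138 to 174 in control chicks. The summed intensity of the 8 markers was 539.7 to 826 in lens-treated and 636 to 1658 in control chicks, with TYR, BEST1, MLANA and PMEL under 16 on all arrays. Summed erythrocyte markers (HBAD and HBA1, 2 of 6 listed) were 39.1 in plus lens replicate 1 and 10.9 to 11.3 on the other 7 arrays. HBAD lay under 16 on all arrays, and HBA1 reached 28.1 in plus lens replicate 1. The part of RNA quality and of these cells in the differences described here was not tested.

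Of the 10 genes, 7 had a probe set at an intensity of 16 or more on all 8 arrays (FGF1, FGF9, FGF12, FGF13, FGF19, FGFR1 and FGFR3). FGF2 lay around 16, and FGF8 and FGFR2 had no probe set that stayed above it. Between 53.4% and 53.8% of an array's probe sets lay under 16, where GC-RMA leaves mostly background. Of the 22 probe sets, 12 had a mean log2 intensity of at least 4 (an intensity of 16), against 46.5% of all probe sets. By array, 10 were at 16 or more on all arrays, 3 on some of them and 9 on none. The signal of a probe set also depends on its probes, and intensities are therefore compared between chicks and not between genes. Differences are log2 fold changes, plus lens over control. Where a gene has several probe sets, they are named by their order of mean signal.

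No FGF ligand or receptor met the criteria for a changed mRNA level in lens-treated chicks. The largest differences were 1.42-fold, lower in lens-treated chicks for FGF2 and higher for FGFR3. The adjusted p-values of the 22 probe sets were 0.979 to 0.999 (limma with Benjamini-Hochberg adjustment), 0 reached a fold change of 1.5 (1.15% of all probe sets did), and over all 38439 probe sets 0 were called (0%) at an adjusted p under 0.06 and 1.5-fold. At an unadjusted p under 0.05 from limma, without the false discovery rate, 1 of the 22 was listed, a probe set of FGFR3, or 4.55% of them against 4.53% of all probe sets. It was higher in lens-treated chicks, as were 2.49% of all probe sets, whereas 2.03% were lower. The median log2 difference was −0.02 over the 22 probe sets and 0.00156 over all, with 14 lower and 8 higher in lens-treated chicks. The groups did not overlap at 1 of the 22, against 2.86% of all probe sets.

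**Figure D1:**
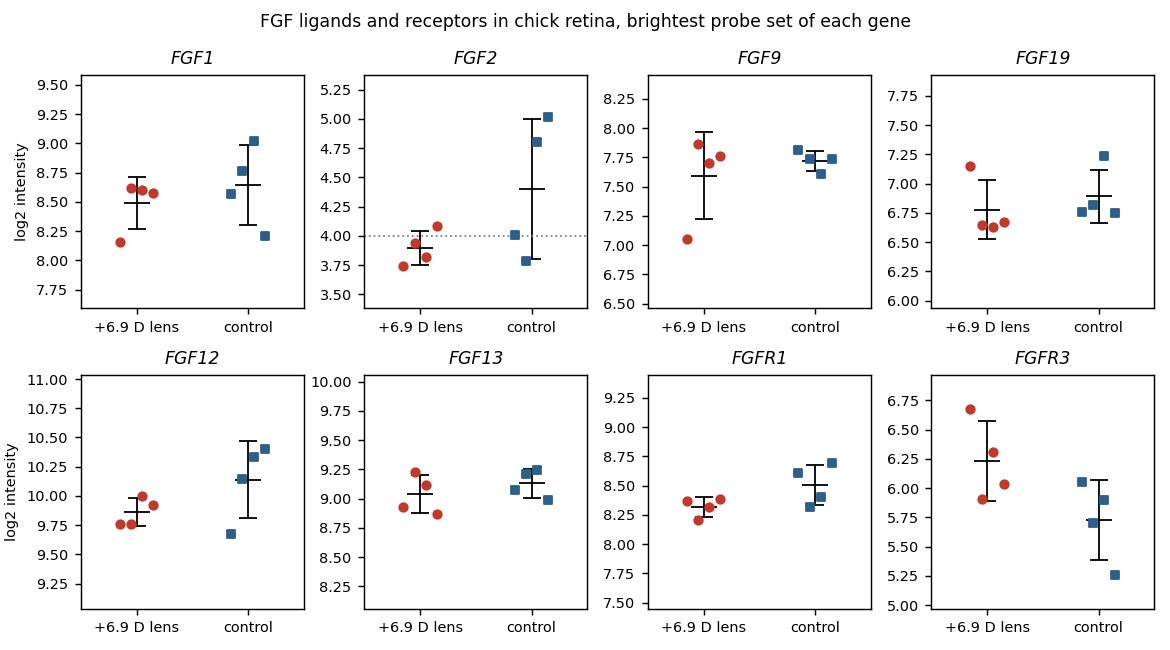
Log2 intensity of the brightest probe set of 8 FGF genes in +6.9 D lens-treated (red circles, left) and control chicks (blue squares, right). Each point is 1 chick, bars are the mean and SD of 4, each panel spans 2 log2 units, and the dotted line for FGF2 marks an intensity of 16. The groups overlapped for all 8 genes, and the spread of FGF2 was larger in controls.

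Among the secreted ligands, FGF1 (acidic FGF, a ligand of all FGF receptors that leaves cells without a signal peptide) was clearly detected at 1 of its 3 probe sets. Its intensities were 286, 393, 389 and 381 in lens-treated chicks and 379.7, 436, 519 and 297 in control chicks. In each group a single array, plus lens replicate 1 and control replicate 4, lay below the others, and the groups overlapped. The log2 difference was −0.15 (SE 0.19, 95% interval −0.61 to 0.31, adjusted p = 0.985 from limma), and it was −0.31 without control replicates 2 and 4. Leaving out 1 array at a time gave −0.30 without control replicate 4 to −0.03 without control replicate 3. The other 2 probe sets of FGF1 lay between 3.41 and 9.47 on all arrays.

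FGF2 (basic FGF) showed the largest difference toward lower values among the 22 probe sets, at an intensity near background. It measured 13.4, 15.3, 14.2 and 16.9 in lens-treated chicks and 16.1, 13.8, 27.9 and 32.4 in control chicks. All 4 lens-treated chicks and control replicates 1 and 2 lay together, while control replicates 3 and 4 stood above them. On the log2 scale lens-treated chicks averaged 3.90 ± 0.15 and control chicks 4.40 ± 0.60 (SD, n = 4 each), a difference of −0.51 (SE 0.29, 95% interval −1.21 to 0.19, adjusted p = 0.979 from limma). The difference was −0.30 without control replicate 4 and −0.72 without control replicate 2, so single control arrays moved it to either side. With intensities under 16 raised to 16 it was −0.44. Over all 8 arrays the exact two-sided permutation test gave p = 0.229. In the pair of control arrays with high FGF2, the summed pigment epithelium markers were the lowest and the highest of the control group, 636 in replicate 3 and 1658 in replicate 4.

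FGF9, a ligand that neurons and glia secrete, varied little among control chicks. Its intensities were 132, 234, 208 and 217 in lens-treated chicks and 225, 213, 195 and 214 in control chicks. Plus lens replicate 1 stood alone below all 7 other arrays. The SD of log2 intensity was 0.37 in lens-treated and 0.08 in control chicks (n = 4 each), and the log2 difference was −0.13 (SE 0.18, 95% interval −0.56 to 0.30, adjusted p = 0.992 from limma). Without plus lens replicate 1 it was 0.05, the opposite sign. Plus lens replicate 1 also had the highest erythrocyte signal, which rests on HBA1 at 28.1, close to background. Any link between that signal and FGF9 was not tested.

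FGF19, an endocrine FGF that in mammals restrains bile acid synthesis and that the embryonic chick eye is known to express, had intensities of 142, 100.3, 99.3 and 102 in lens-treated chicks. In control chicks they were 108, 113, 150.4 and 108. In both groups 1 array, plus lens replicate 1 and control replicate 3, lay above 3 closely spaced ones. The log2 difference was −0.11 (SE 0.16, 95% interval −0.50 to 0.27, adjusted p = 0.992 from limma), and without control replicate 3 it was −0.000310. Without control replicates 2 and 4 it was −0.22.

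FGF8, a ligand that organizes the early eye and midbrain of the embryo, was at background in the retina of these chicks. Its intensities lay between 5.77 and 5.80 in lens-treated and between 5.74 and 5.83 in control chicks, a log2 difference of −0.000217 (SE 0.00742, adjusted p = 0.999 from limma). A level under the background of the array cannot be compared, and a small spread there does not show that the mRNA is absent.

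The FGF homologous factors FGF12 and FGF13 had strong signals in every retina. FGF12, which binds the tail of sodium channels and sets their inactivation, had intensities of 866, 868, 1023 and 973 in lens-treated chicks and 815, 1130.4, 1294 and 1351 in control chicks. Control replicates 2, 3 and 4 lay above every lens-treated chick, whereas control replicate 1 was the lowest of all 8. On the log2 scale lens-treated chicks averaged 9.86 ± 0.12 and control chicks 10.14 ± 0.33 (SD, n = 4 each), a difference of −0.28 (SE 0.17, 95% interval −0.67 to 0.12, adjusted p = 0.979 from limma). The difference was −0.43 without control replicate 1 (unadjusted p = 0.00351, adjusted p = 0.619 from limma). Without both control arrays that lack W-linked signal it was −0.14. The exact two-sided permutation test over all 8 arrays gave p = 0.171.

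FGF13, which binds sodium channels and also microtubules, was measured by 4 probe sets, 3 of them clearly detected. At the brightest the intensities were 489, 598, 554 and 469 in lens-treated chicks and 538, 594, 606 and 508 in control chicks. Plus lens replicates 1 and 4 lay below all control chicks and control replicate 3 above all lens-treated ones, with overlap among the others. The second probe set had intensities of 172, 192, 184 and 152 in lens-treated chicks and 179, 184, 209 and 171 in control chicks. At the third they were 119, 119, 93.2 and 78.6 in lens-treated chicks and 78.9, 102, 119.9 and 98.7 in control chicks. At the second the ranges overlapped, with the lens-treated range reaching somewhat lower, and at the third both groups covered nearly the same range. The log2 differences of the 3 detected probe sets were −0.09 (SE 0.10), −0.09 (SE 0.09) and 0.03 (SE 0.18), and their 95% intervals all lay within a 1.5-fold difference, 0.585 on the log2 scale. Without control replicates 2 and 4 the 3 differences were −0.12, −0.15 and 0.05. The 2 brighter probe sets followed each other over the 8 arrays (Pearson's r = 0.909, Spearman's coefficient 0.976), and the third followed them less closely (r = 0.485 and 0.639). These probe sets read the same labelled RNA, so their coefficients describe the probes and not replicates. The fourth probe set lay between 5.60 and 5.75 on all arrays.

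**Figure D2:**
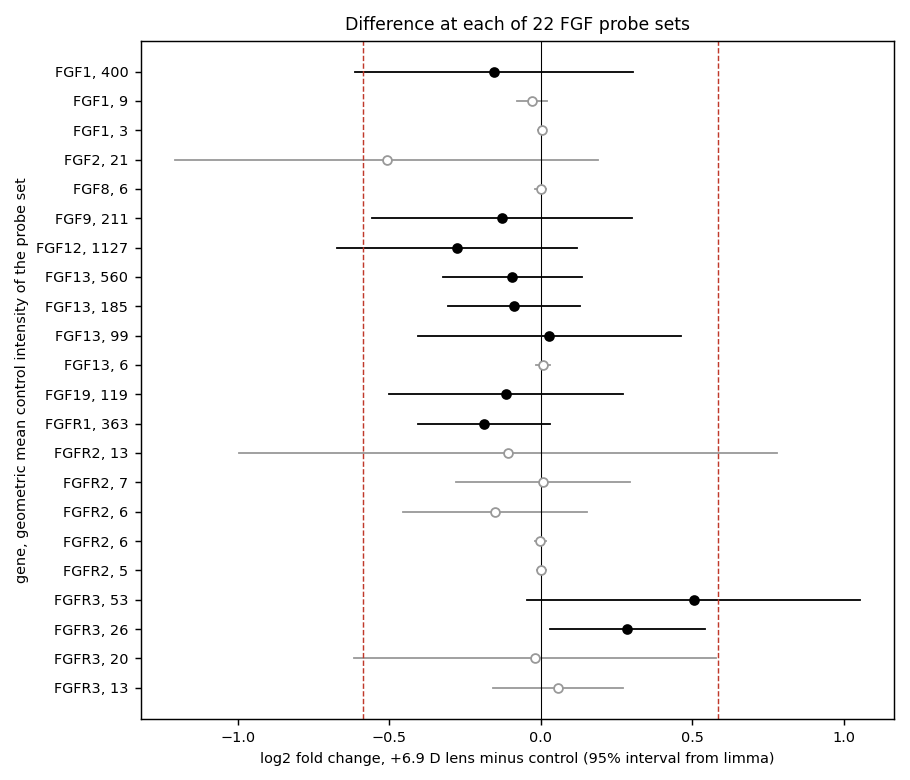
Log2 difference (+6.9 D lens minus control) with its 95% interval from limma at each of the 22 probe sets, labelled by gene and geometric mean control intensity. Filled black points are the 10 probe sets at an intensity of 16 or more on all 8 arrays, open grey points the others, and dashed red lines mark 1.5-fold. All point estimates lie inside the dashed lines, with 1 interval, at FGFR3, excluding 0.

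Of the receptors, FGFR3 was the one gene with a probe set at which all lens-treated chicks lay above all control chicks, although it did not pass. FGFR3 is a receptor tyrosine kinase that in the mammalian brain is characteristic of astrocytes and their progenitors. At its second probe set the intensities were 31.3, 26.8, 38.3 and 30.6 in lens-treated chicks and 26.6, 26.5, 23.8 and 26.5 in control chicks. Plus lens replicate 2 exceeded the highest control array by a small step, 26.8 in that lens-treated chick against 26.6 in the control chick. On the log2 scale lens-treated chicks averaged 4.98 ± 0.21 and control chicks 4.69 ± 0.08 (SD, n = 4 each), a difference of 0.29 (SE 0.11, 95% interval 0.03 to 0.54). The unadjusted p was 0.0335 and the adjusted p 0.979 from limma, and the exact two-sided permutation test gave p = 0.0286, the smallest that 4 chicks against 4 allow. When control replicates 2 and 4 were given a term of their own the difference was 0.32, with an unadjusted p of 0.0631 from limma. The unadjusted p stayed under 0.05 in 8 of 19 alternatives.

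At the brightest probe set of FGFR3 the difference pointed the same way and the groups overlapped. Intensities were 102, 59.9, 79.3 and 65.6 in lens-treated chicks and 66.5, 51.9, 59.5 and 38.3 in control chicks. Plus lens replicate 1 was the highest and control replicate 4 the lowest of the 8 arrays. On the log2 scale lens-treated chicks averaged 6.23 ± 0.34 and control chicks 5.73 ± 0.34 (SD, n = 4 each), a difference of 0.51 (SE 0.23, 95% interval −0.04 to 1.05, adjusted p = 0.979 from limma). Without control replicates 2 and 4, which lack W-linked signal, it was 0.26. Leaving out 1 array at a time gave 0.35 to 0.61, and the exact two-sided permutation test over all 8 arrays gave p = 0.114.

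The other 2 probe sets of FGFR3 lay close to an intensity of 16 and did not share this pattern. The third had intensities of 24.9, 20.2, 14.8 and 20.1 in lens-treated chicks and 18.4, 15, 30.2 and 18.8 in control chicks, a log2 difference of −0.02 (SE 0.25). The difference was −0.26 without control replicates 2 and 4, and leaving out 1 array at a time gave −0.16 without control replicate 2 to 0.18 without control replicate 3, so its sign was not stable. Its single highest array was control replicate 3, the lowest array of the second probe set. The fourth had 12.3 to 15.8 in lens-treated and 12.3 to 13.5 in control chicks, a log2 difference of 0.06 (SE 0.09). Over the 8 arrays the brightest probe set correlated with the second (Pearson's r = 0.588, Spearman's coefficient 0.81) more than with the third (r = 0.197, Spearman's coefficient 0). The 4 probe sets of FGFR3 thus gave different values. Averaged over all 4, the log2 difference was 0.21.

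**Figure D3:**
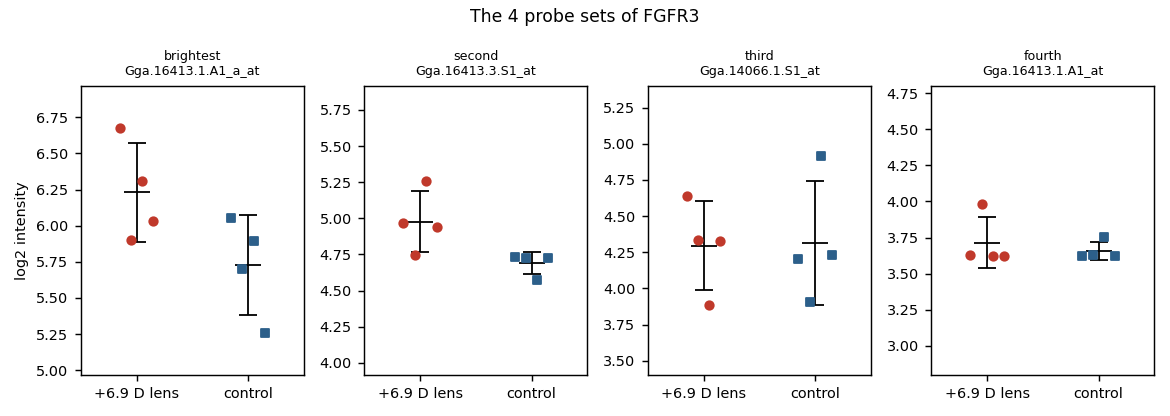
Log2 intensity at the 4 probe sets of FGFR3 in +6.9 D lens-treated (red, left) and control chicks (blue, right), 1 point per chick with the mean and SD of 4, and panels of 2 log2 units each. The probe sets run from the highest mean signal (left) to the lowest, and the groups separate at the second by a narrow gap and overlap at the 3 others.

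FGFR1, the receptor of neural progenitors and many neurons in vertebrates, lay slightly lower in lens-treated chicks. Its intensities were 329.7, 295, 319 and 335 in lens-treated chicks and 391, 319.8, 338 and 413 in control chicks. Control replicates 1, 3 and 4 were above all lens-treated chicks, replicate 3 by a small step, and control replicate 2 lay among them. On the log2 scale lens-treated chicks averaged 8.32 ± 0.08 and control chicks 8.51 ± 0.17 (SD, n = 4 each), a difference of −0.19 (SE 0.09, 95% interval −0.41 to 0.03, adjusted p = 0.979 from limma). The exact two-sided permutation test gave p = 0.114. A 1.5-fold difference in either direction lies outside this interval, as it does for FGF9 and FGF19. The interval covers the spread of these 8 arrays and was not widened for the number of probe sets.

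FGFR2, a receptor of epithelia and glia, was near or under background at all 5 probe sets. The one with the highest signal had intensities of 12.3, 12.8, 13.8 and 10.0 in lens-treated chicks and 24.0, 7.02, 10.8 and 16 in control chicks. Control chicks spanned 1.77 log2 units, and the lens-treated chicks lay inside their range. The log2 difference was −0.11 (SE 0.37, 95% interval −0.99 to 0.78, adjusted p = 0.996 from limma), and it was −0.41 without control replicates 2 and 4 and 0.19 without control replicate 1. At the other 4 probe sets intensities were 4.91 to 8.75, with log2 differences of −0.15 to 0.01.

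Correlations between the FGF genes over the 8 arrays, which share RNA extract, hybridization and the treatment contrast, took both signs. Among 28 pairs of the 8 genes whose brightest probe set averaged at least 4 (log2), Pearson's r was −0.714 to 0.77 with a median of 0.12. FGF2 and FGF12 gave the highest value (r = 0.77, Spearman's coefficient 0.5, and r = 0.671 within groups). FGF2 reached an intensity of 16 on only 4 of the 8 arrays. FGF1 and FGF13 followed (r = 0.729, Spearman's coefficient 0.833, and r = 0.699 within groups). FGF9 and FGF19 gave the lowest value (r = −0.714, Spearman's coefficient −0.548, and r = −0.843 within groups). Plus lens replicate 1 was the lowest array for FGF9 and the highest of its group for FGF19. Control replicate 3 was the lowest of its group for FGF9 and the highest of all 8 arrays for FGF19.

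Genes with the most similar pattern over the 8 arrays were sought among 14542 probe sets with a single symbol and a mean log2 intensity of at least 4. For FGF1 these were SCUBE2 (r = 0.987), PPP2R2C (r = 0.974) and TUBB4B (r = 0.97). For FGF12 they were SNRNP200 (r = 0.969), SEC24C (r = 0.96) and NDNF (r = 0.955). For FGFR1 they were ETS1 (r = 0.973, and 0.924 without the 2 arrays farthest from the median), BTBD3 (r = 0.961, and 0.703) and ATRN (r = 0.937, and 0.458). The best of so many candidates over 8 arrays have high coefficients by selection, and they are given as a description.

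The genes around these ligands and receptors were read from 5 lists, with the probe set of the highest mean for each gene. Of 100 listed symbols 87 were measured, and 0 passed after adjustment. At an unadjusted p under 0.05 from limma 7 were higher and 4 lower in lens-treated chicks, 11 of 87 in all, against 6.44% of 13009 genes with 1 probe set each (3.27% higher and 3.17% lower). Of the 87, 59 averaged at least 4 (log2), and of all probe sets that bright 8.75% had an unadjusted p under 0.05 from limma. The lists were chosen with earlier results of these data known, so the count of 11 is not independent evidence. The log2 difference was positive for 47 of the 87, against 52.9% of the 13009 genes, and its median over the 87 was 0.00227.

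Of 13 other FGF ligands and receptors, 8 were higher and 5 lower, and only FGF14 and FGFRL1 averaged at least 4 (log2). FGF14, a further FGF homologous factor, had a log2 difference of 0.11 (SE 0.13), and FGFRL1, a receptor without a kinase domain, of 0.26 (SE 0.19). FGF18 was listed at an unadjusted p under 0.05, but with intensities of 8.71 to 10.5 in lens-treated and 6.63 to 8.46 in control chicks, all under 16. FGF7 showed a log2 difference of 0.12 (SE 0.07) at its probe set with the highest mean (and 0.68 at another), FGF5 of −0.33 (SE 0.24) and FGF23 of −0.02 (SE 0.03), also under or near background.

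Coreceptors and extracellular modulators of FGFs were higher in 16 of 25 and lower in 9. Of the 25, 17 averaged at least 4 (log2), and the count of directions includes the dim ones. SULF2, a sulfatase that trims heparan sulfate, had intensities of 295 to 310.2 in lens-treated and 232 to 290.2 in control chicks, a log2 difference of 0.19 (SE 0.07). HS2ST1, a heparan sulfate sulfotransferase, had a log2 difference of 0.18 (SE 0.07), EXT1, a heparan sulfate polymerase, of −0.07 (SE 0.08), and KL, the coreceptor klotho, of −0.05 (SE 0.05) at background. At an unadjusted p under 0.05 from limma 3 genes of this list were higher and 0 lower, the third being FGFBP2 (0.36, SE 0.15), named after its value was seen. The adjusted p of all 3 was 0.979 from limma.

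Adaptors and kinases that carry the receptor signal were split evenly, 11 higher and 11 lower of 22. CRK, an adaptor, had intensities of 362 to 375 in lens-treated and 317 to 362 in control chicks, a log2 difference of 0.12 (SE 0.05), and its other probe set gave 0.32 (SE 0.10). SOS2, an exchange factor of RAS, had a log2 difference of 0.11 (SE 0.05), the transcription factor STAT3 of −0.10 (SE 0.08) and the adaptor GAB1 of −0.10 (SE 0.10). Other probe sets of SOS2, STAT3 and GAB1 at 16 or more on all arrays gave −0.02 for SOS2, 0.15 and −0.07 for STAT3 and 0.05 for GAB1. Of these, only the −0.07 of STAT3 shared the sign of the gene's brightest probe set. At the brightest probe sets, CRK and SOS2 were the genes of this list at an unadjusted p under 0.05, with an adjusted p of 0.979 from limma. The brightest probe set of GRB2, a further adaptor, had a log2 difference of −0.03 (SE 0.06). GRB2 is named because the authors report it as higher in lens-treated chicks, on the arrays and by real-time PCR. The control signal they list for it is lower than at this probe set. Other probe sets of GRB2 were not examined here.

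Among targets and feedback inhibitors of FGF and ERK signaling, 13 of 19 were lower and 6 higher, with a median log2 difference of −0.08. This list holds EGR1, ETV5 and DUSP4, which were already known as lower from these same arrays, so its count is not independent evidence of a direction. By real-time PCR, which the authors ran for ETV5 and DUSP4 (as MKP2) on these and further chicks, neither changed significantly. The PCR difference pointed lower for DUSP4, as on the arrays, and higher for ETV5. The authors state that their MKP2 primers lay outside the region of the array probes. For ETV5 they state that a single probe set of several on the array was differentially expressed. EGR1, an immediate early transcription factor, had intensities of 571 to 850.1 in lens-treated and 1785 to 2099 in control chicks, and ETV5, an ETS factor downstream of FGF receptors, 762 to 804 in lens-treated and 881 to 1088 in control chicks at its brightest probe set (log2 difference −0.34). Further probe sets of ETV5 gave −0.47 and −0.60, each with an adjusted p of 0.0990 from limma, and 0.04. Another, at 6.75 to 6.81 on all arrays and so at background, gave 0.00. Of the ETV5 differences only the −0.60 exceeded 1.5-fold. FLRT3, a membrane protein that binds FGF receptors, had 147 to 201 in lens-treated and 117 to 155 in control chicks, a log2 difference of 0.42 (SE 0.13), and its relative FLRT2 of 0.24 (SE 0.23). Another probe set of FLRT3, the next in signal, gave −0.05. At an unadjusted p under 0.05 from limma 4 genes were lower, EGR1, ETV5, DUSP6 and DUSP4. The ERK phosphatases DUSP6 (−0.38, SE 0.09) and DUSP4 (−1.33, SE 0.32) were named after their values were seen. DUSP4 had intensities of 10.7 to 28.6 in lens-treated and 36.3 to 62.5 in control chicks, so its lens-treated values lay around 16. The control signal that the authors list for it (as MKP2) is lower than at this probe set. Other probe sets of DUSP4 and DUSP6 were not examined here. The adjusted p of the 4 lower genes at their brightest probe sets was 0.0990 to 0.948 from limma, so none of them passed here. The authors list EGR1, ETV5 and DUSP4 as differentially expressed on these arrays. Their fold change and control signal for ETV5 match the probe set with −0.60.

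**Figure D4:**
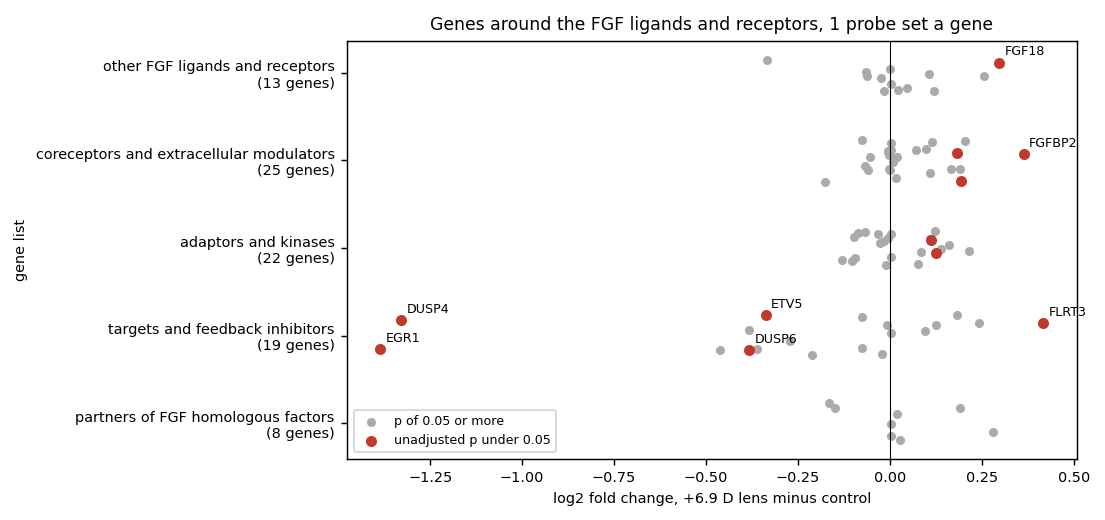
Log2 difference (+6.9 D lens minus control) of 87 genes in 5 lists, 1 point per gene, with unadjusted p under 0.05 from limma in red. The points of most lists lie close to 0, while EGR1 and DUSP4 lie beyond −1.

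The list for sodium channels, which FGF homologous factors bind, held alpha and beta subunits. Of its 8 genes, 6 were higher and 2 lower, with 0 at an unadjusted p under 0.05 from limma. Of these 8, 6 averaged at least 4 (log2), and the count of directions includes the dim ones. SCN1A and SCN3A, alpha subunits, had log2 differences of 0.19 (SE 0.14) and 0.28 (SE 0.26). SCN2B, a beta subunit, had −0.17 (SE 0.09) and SCN8A, the main alpha subunit of mature axon initial segments, −0.15 (SE 0.09). Other probe sets of SCN8A gave −0.26 to 0.38. The probe set next in signal gave 0.00295 for SCN2B and −0.01 for SCN3A.

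**Figure D5:**
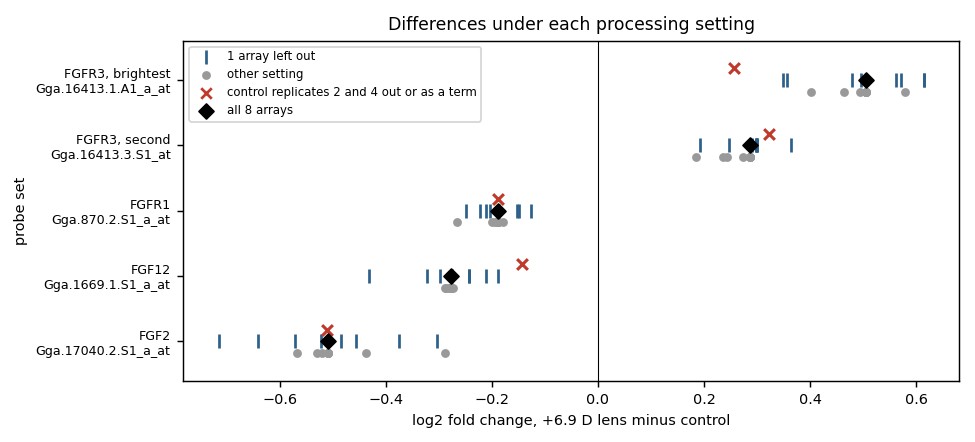
Log2 difference (+6.9 D lens minus control) of 5 probe sets with all 8 arrays (black diamonds), with 1 array left out (blue bars), with control replicates 2 and 4 left out or as a term (red crosses) and under the other settings (grey points). Both FGFR3 probe sets stay above 0 and FGFR1, FGF12 and FGF2 below 0 throughout, with FGF12 and the brighter FGFR3 probe set nearest to 0 at the red crosses.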

How the data were processed

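Retinal RNA of 8 chicks was measured on Affymetrix Chicken Genome arrays. From the scans, read with Microarray Suite, the authors computed a linear intensity for each probe set by GC-RMA in ArrayAssist, and these deposited intensities were the starting point. The experiment records gave the fluidics station and scan order. No further scaling was applied before log2, 96 Affymetrix controls were left out, and 38439 probe sets were tested. The platform annotation names 1 gene for 27168 of these, more than 1 for 177 and no gene for 11094, and 26853 matched RefSeq of GRCg7b, used for current symbols and chromosomes only. Plus lens was compared with control by limma 3.58.1 (lmFit, eBayes) in R 4.3.3 with no block, p-values were adjusted over all probe sets by the Benjamini-Hochberg method, and a call needed an adjusted p under 0.06 and 1.5-fold. Permutation tests of single probe sets were exact and two-sided, with 70 possible relabelings. Alternatives were the methods' t-test, trended and robust eBayes, array weights, quantile normalization, median centring, a filter at a mean log2 of 4, a floor or pseudocount of 16, the replicate number as a block, the mean of a gene's probe sets, each array left out, and control replicates 2 and 4 left out or as a term. The steps were tested on simulated data.

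Members and gene lists were chosen with earlier results of these data known. Named genes are all probe sets of the 10 genes, the 2 genes with the smallest p in each direction of each pathway list, and the 3 probe sets with the highest Pearson's r to the brightest secreted ligand, homologous factor and receptor. The replicates are separate chicks, and p-values measure the spread between these chicks. Sequences were not used here.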

Additional observations from a re-analysis of the deposited data

Results flagged for a closer look

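Within the groups of 4 chicks, 44 in all over the 22 probe sets, Dixon's ratio marked 9 single arrays as lying apart from the other 3. For independent, normally distributed values it would mark about 1 group in 20. The 44 groups share the same 8 arrays, and the share over all probe sets was not computed, so no excess is claimed. Of the 9 marked, 5 belong to probe sets with a mean log2 intensity under 4, where steps are small. At the detected probe sets, plus lens replicate 1 was low for FGF1 (log2 intensity 8.16, nearest array 8.58) and high for FGF19 (7.15, nearest 6.67). Control replicate 3 was high for FGF19 (7.23, nearest 6.82) and low for FGFR3 at its second probe set (4.57, nearest 4.73). At the dim probe sets, control replicate 2 was high for FGF1 at its second probe set (3.24), plus lens replicate 3 for FGFR2 at its second probe set (3), control replicate 3 for FGFR2 at the third of its probe sets (3.03), and plus lens replicate 2 (3.98) and control replicate 3 (3.75) for FGFR3 at the fourth of its probe sets.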

How the results depend on the processing

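With 4 chicks per group the number of arrays limits the precision, and near an intensity of 16 the values hold little signal. None of the 22 probe sets was called under any of the 19 alternatives. The 12 probe sets with a mean log2 of at least 4 kept their sign in 221 of 228 values (values within 0.001 of 0 counted as kept), the exceptions lying at FGF9, the third probe set of FGF13 and the third of FGFR3, and the 10 dim ones in 159 of 180 (the filter on dim probe sets gives them no value). Over all probe sets, calls numbered 0 in the main analysis, 1 (EGR1) with the filter on dim probe sets and 3 with the term for control replicates 2 and 4 (ETV5 and 2 without a symbol), and 0 to 1 when 1 array was left out, at CD226 without plus lens replicate 4 and PPFIA2 without control replicate 1. At an unadjusted p under 0.05 with 1.5-fold 162 probe sets were listed, 287 with array weights, 106 with the floor of 16, 62 with the pseudocount of 16, and 133 to 333 when 1 array was left out. There were 333 without control replicate 1 and 246 without control replicate 3. Of the FGF probe sets 1 was listed at an unadjusted p under 0.05, the second of FGFR3. With array weights it was FGFR1 instead, and FGFR3 was not listed. There were 2 with the filter, 0 with quantile normalization, 0 with the term for control replicates 2 and 4, 0 without both of them, and 0 to 2 when 1 array was left out. The 11 pathway genes numbered 7 with the filter on dim probe sets and 6 to 12 when 1 array was left out. Deviations of same-numbered chicks from their group means correlated with r of −0.0134 to 0.111, the highest at replicate 1. The replicate number also matches the module number of the fluidics station and the order of scanning within each group. With the replicate number as a block, 2 FGF probe sets (FGFR1 and the brightest of FGFR3) and 7 pathway genes had an unadjusted p under 0.05, with 0 calls. The cause of these shifts was not tested.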

Other observations

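Within each array, the log2 intensity of FGFR1 exceeded that of FGFR3 at their brightest probe sets by 1.69 to 2.35 in lens-treated chicks and by 2.51 to 3.43 in control chicks. The 8 FGF genes whose brightest probe set averaged at least 4 (log2) form 28 pairs. In only this 1 did the within-array difference not overlap between the groups. The share among pairs of other genes was not computed, and 2.86% of all single probe sets did not overlap. The pair was picked after the values were seen and carries no test. The size of its difference is a matter of how the probes bind as well as of mRNA.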
